A study of Xenopus laevis with 6 samples.

Results

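Regional homeobox genes were examined in 6 juvenile *Xenopus laevis* frogs, through 71 genes chosen by symbol among 9271 genes with a probe set of their own on the array. The rule took the *hoxa* to *hoxd*, *irx*, *otx*, *pax*, sine oculis (*six3*, *six3-b* and *six6* here), *nkx*, *gbx*, *meis*, *pbx* and *pou* families with *en1* and *en2*, and left out *nkx2-1* and *pou1f1*. The L and S copies of a gene, which lie on the long and short chromosomes of this allotetraploid frog, were counted as 1 gene and represented by the probe set with the highest mean, out of 127 probe sets among 32539. There were 23 Hox, 12 *pou*, 10 *pax*, 8 *nkx*, 5 *irx*, 3 sine oculis and 3 *meis* genes, 2 each of *en*, *gbx* and *otx*, and 1 *pbx*. The rule also took *paxip1*, *paxbp1* and *pou2af1*, which encode partner proteins and not homeodomain factors, and it counted *pax2-b* and *six3-b* apart from *pax2* and *six3*.

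The leptin group was 3 frogs (numbered 4, 5 and 6) given 20 ng of recombinant frog (*X. laevis*) leptin per g of body weight into the brain ventricles. The saline group was 3 frogs (numbered 1, 2 and 3) injected with 0.6% saline. In both groups the frogs weighed 0.8 g on average, and preoptic area, hypothalamus and pituitary were taken 2 h after the injection as 1 block and hybridized to 1 array per frog. Values are deposited log2 signals, so a difference of 1 is a 2-fold difference in signal. Probe sets bind with unequal strength, so levels are compared between arrays and not between genes, and with bulk tissue fewer cells of a type and less RNA per cell cannot be told apart.

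Homeobox genes encode transcription factors that give parts of the embryo their position along the body axis, and many stay active in the adult brain regions they helped to lay out. The *otx* genes belong to forebrain and midbrain, *en* and *pax2/5/8* genes to the midbrain and its border with the hindbrain, and Hox genes to hindbrain, spinal cord and trunk. The *six3*, *six6*, *nkx2-2* and *nkx2-4* genes belong to the ventral forebrain, where hypothalamus, eye and pituitary arise. Their transcripts can serve as markers of the regions in a dissected block.

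All arrays had a similar median (7.36 to 7.46), and their correlations over all probe sets lay between 0.983 and 0.995. Leptin frog 6 had a raised low end: its lower quartile was 5.62, against 5.48 to 5.50 on the other 5 arrays, and its dimmest probe sets (the lowest 25% by mean signal) stood a median of 0.16 above the mean of the other arrays. Saline frog 1 had low pituitary transcripts. For the 9 measured genes of a pituitary list, the median deviation from each gene's own mean was 0.88, 0.95 and 0.71 in leptin frogs 4, 5 and 6. It was -3.04, 0.44 and 1.07 in saline frogs 1, 2 and 3. Saline frog 3 had high skeletal muscle transcripts (median deviation of 8 genes 1.62, against -0.55 to -0.03 elsewhere). Its pallial transcripts were low (median deviation of 5 genes -1.49, against 0.05 to 0.42 elsewhere).

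By the probe set with the highest mean, all 5 genes of the hypothalamus, eye and pituitary list lay above the array median on every array. They were *six3*, *six6*, *pax6*, *nkx2-2* and *nkx2-4*, of which *pax6* is also a factor of the pallium. Further probe sets lay below the median on every array: *nkx2-4.L* (5.62 to 6.76), both for *six3.S* (6.30 to 6.79) and 1 for *pax6.L* (4.26 to 4.45). The *six6.S* probe set ran from 7.14 to 8.23. Outside the rule, *nkx2-1*, a factor of the hypothalamus, read 9.79 to 9.85 in leptin frogs, against 9.77 to 10.22 in saline frogs. It is 1 of 8 measured genes of a preoptic area and hypothalamus list. Of these, 7 lay above the array median on every array, and *rax.S* lay below it (5.14 to 5.85). Saline frog 3 was highest for 5 of the 8 but lowest for *fezf2.L* (7.95, against 8.86 to 9.70 elsewhere). Over all 71 genes, 17 lay above the array median on every array and 47 below it on every array. Of all 9271 genes, 5871 lay above it on every array and 2762 below it. The file holds no measure of background, so a place below the median does not tell a weak probe set from a scarce transcript. For description, the 13 measured genes of other organs (such as insulin, *ins*, and pancreatic carboxypeptidase, *cpa1*) read 3.97 to 7.29.

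The members varied between frogs more widely than most genes. The range over the 6 arrays had a median of 0.63 for members and 0.38 for all genes, and it was above 1 for 20 of 71 members (28.2%), against 702 of 9271 genes (7.57%). Members also had lower signals, with a median mean level of 5.82 against 8.61 for all genes. Among those 20 members, leptin frog 6 was highest for 14, saline frog 3 for 5 and saline frog 2 for 1 (*pou2af1*), and saline frog 1 was lowest for 11. These 20 were chosen by range, which 1 high or low array can widen by itself, so the counts depend in part on that choice. Over all 71 members leptin frog 6 was highest for 49 (69.0%), saline frog 3 for 11 (15.5%) and saline frog 2 for 5 (7.04%). Over all 9271 genes these 3 frogs were highest for 19.7%, 28.5% and 12.5%. Among the 4635 dimmer genes leptin frog 6 was highest for 29.2%. Saline frog 3 was most often lowest, for 19 of 71 members (26.8%), against 18.4% of all genes. Saline frog 1 was lowest for 16 of 71 (22.5%), against 15.6% of all genes. For 10 of these 20 genes the array holds further probe sets, 14 in all, which had lower means than the displayed one. For 13 of the 14 the highest array was the same as for the displayed probe set, and the exception was for *irx1*. The 14 are not independent of one another, since 5 of them are for *pax2*. Probe sets of 1 array also share its raised or lowered low end, and leptin frog 6 was highest for 69.0% of members. Without a rate of such agreement over all genes, the 13 of 14 cannot be read as separate support.

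**Figure D1:**
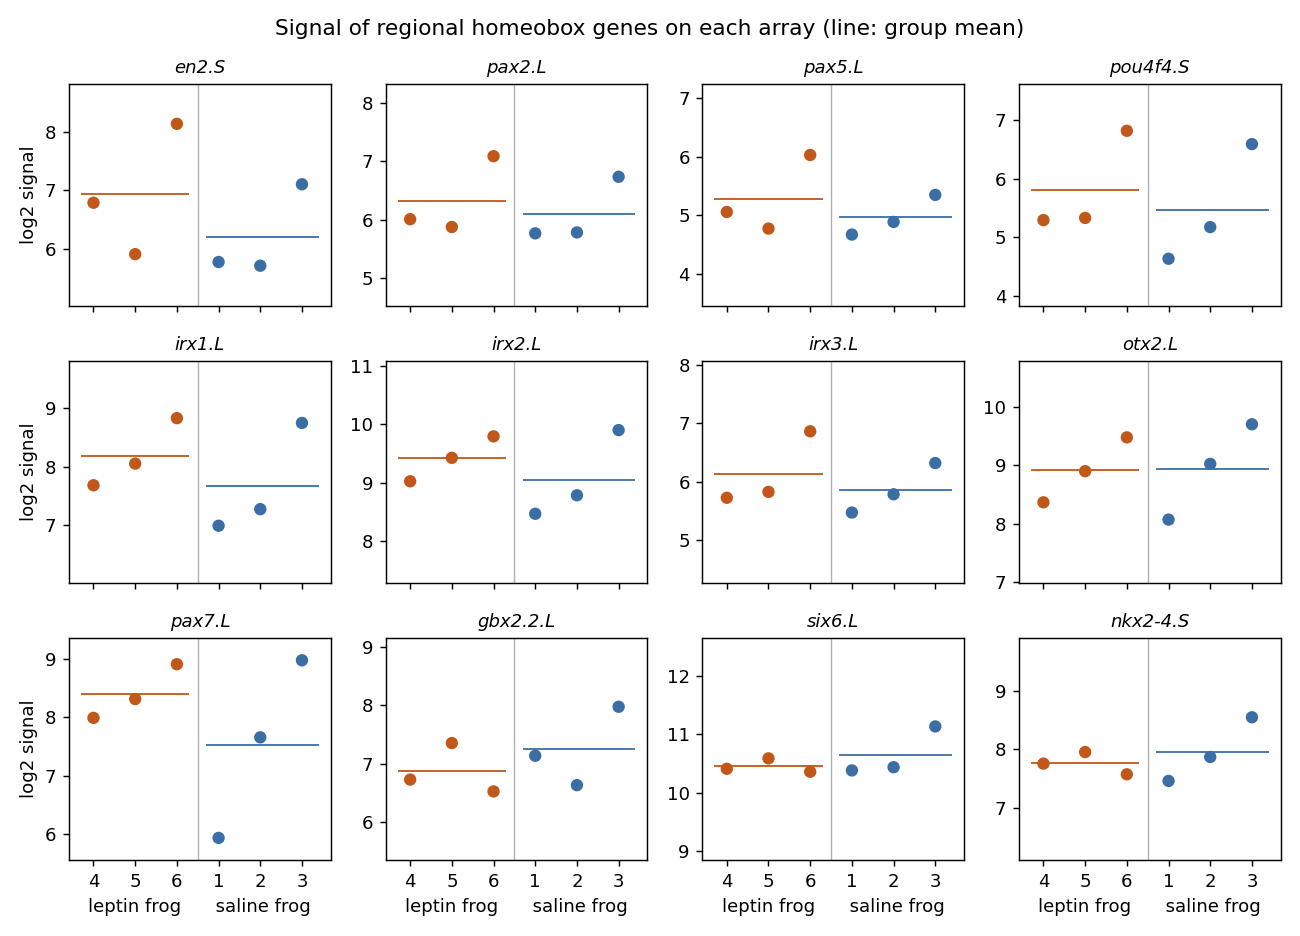
Log2 signal (vertical axes, all spanning the same number of log2 units) of 12 regional homeobox genes on each array, with leptin frogs 4, 5 and 6 on the left in orange and saline frogs 1, 2 and 3 on the right in blue. Lines are group means of 3 frogs. Leptin frog 6 and saline frog 3 are highest for *en2.S*, *pax2.L*, *pou4f4.S* and *irx1.L*, while saline frog 3 alone is high for *six6.L* and *nkx2-4.S*.

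Engrailed 2, which in vertebrates maintains the midbrain-hindbrain border and the tectum and cerebellum next to it, differed widely between frogs of the same group. The *en2.S* signal was 6.79, 5.91 and 8.14 in leptin frogs 4, 5 and 6, against 5.78, 5.71 and 7.11 in saline frogs 1, 2 and 3. Leptin frog 6 was highest, saline frog 3 and leptin frog 4 came next, and leptin frog 6 was the 1 array on which the probe set lay above the array median. Both groups held lower and higher blocks and overlapped. The probe set for the other copy, *en2.L*, gave the same order at the top, with 6.16, 5.30 and 7.91 in leptin frogs 4, 5 and 6, against 4.86, 5.32 and 6.71 in saline frogs 1, 2 and 3. From the lowest to the highest array *en2.S* spanned 5.37-fold.

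Of the other genes of the same border region, *en1*, *pax2* and *pax5* were high in leptin frog 6 and saline frog 3. *pax8* and the *gbx2* genes did not share this pattern. Under their listed names, 5 genes of the boundary list were measured (*en1*, *en2*, *pax2*, *pax5* and *pax8*), and all were highest in leptin frog 6. The list also named *gbx2*, which the array holds as *gbx2.1* and *gbx2.2*. These *gbx2* genes were not counted in the list and were highest in saline frog 3. *pax2.L*, a paired-box factor of the border and of the developing eye and ear, read 6.01, 5.88 and 7.09 in leptin frogs 4, 5 and 6, against 5.77, 5.78 and 6.73 in saline frogs 1, 2 and 3. All 5 further *pax2.L* probe sets were also highest in leptin frog 6, and the separate *pax2-b* probe set varied by 0.29 over the arrays. *pax5.L*, its close relative, read 5.06, 4.78 and 6.03 in leptin frogs 4, 5 and 6, against 4.67, 4.89 and 5.35 in saline frogs 1, 2 and 3. *pax8.L* stayed between 5.32 and 5.73, with saline frog 3 lowest. Over these 5 list genes, without *gbx2*, the median deviation from each gene's own mean was -0.05, -0.35 and 0.88 in leptin frogs 4, 5 and 6. It was -0.44, -0.39 and 0.32 in saline frogs 1, 2 and 3.

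Iroquois genes, which pattern thalamus, midbrain and hindbrain, were highest in leptin frog 6 for 4 of the 5 measured members and in saline frog 3 for the other. *irx1.L* read 7.69, 8.06 and 8.83 in leptin frogs 4, 5 and 6, against 6.99, 7.28 and 8.75 in saline frogs 1, 2 and 3. The top of the order turned in *irx1.S*, with 7.06 in leptin frog 6 and 7.34 in saline frog 3. *irx2.L*, the member of the family with the highest signal, read 9.02, 9.43 and 9.79 in leptin frogs, against 8.47, 8.79 and 9.90 in saline frogs. *irx3.L* reached 6.86 in leptin frog 6 and 6.32 in saline frog 3, against 5.47 to 5.82 in the other 4. *irx4.L* and *irx5.L* were highest in leptin frog 6 (5.75 and 6.25) and did not stand out in saline frog 3 (4.86 and 5.74). All 5 measured *irx* genes varied by more than 1 on the log2 scale.

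Class IV POU factors, known in vertebrates from sensory neurons, tectum and habenula, were also highest in leptin frog 6. *pou4f4.S* read 5.29, 5.33 and 6.82 in leptin frogs 4, 5 and 6, against 4.63, 5.17 and 6.59 in saline frogs 1, 2 and 3. The 2 high frogs were thus 1 from each group. *pou4f1.L* read 6.35, 6.54 and 7.18 in leptin frogs, against 6.06, 6.43 and 6.70 in saline frogs. A second *pou4f1.L* probe set read 5.92, 5.95 and 7.07 in leptin frogs, against 6.21, 6.00 and 6.07 in saline frogs. Saline frog 3 was not raised on that probe set. Lists of genes outside the rule are set beside them. For the 6 genes of a thalamus and pretectum list, the median deviation was -0.24, 0.04 and 0.36 in leptin frogs 4, 5 and 6, against -0.33, -0.19 and 0.35 in saline frogs 1, 2 and 3. For the 4 measured genes of a midbrain list (*gata2*, *gata3*, *foxa1* and *foxa2*), the median deviation was -0.11, 0.06 and 0.61 in leptin frogs, against -0.60, -0.61 and 0.54 in saline frogs. On the thalamic list *zic1* went the other way, lowest in leptin frog 6 (11.83) and highest in saline frog 2 (12.29). For the 6 measured genes of a cerebellum and hindbrain list, the median deviation was 0.51 in leptin frog 6 and -0.05 in saline frog 3. This list was split. *barhl1*, *lbx1* and *tlx3* were highest in leptin frog 6 (6.52, 5.98 and 4.77). *cbln1* and *pvalb* were highest in saline frog 3 (9.02 and 7.85), and *egr2* in saline frog 1 (5.91). *pvalb* is also on the skeletal muscle list. The part of dissection borders in these differences was not tested.

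**Figure D2:**
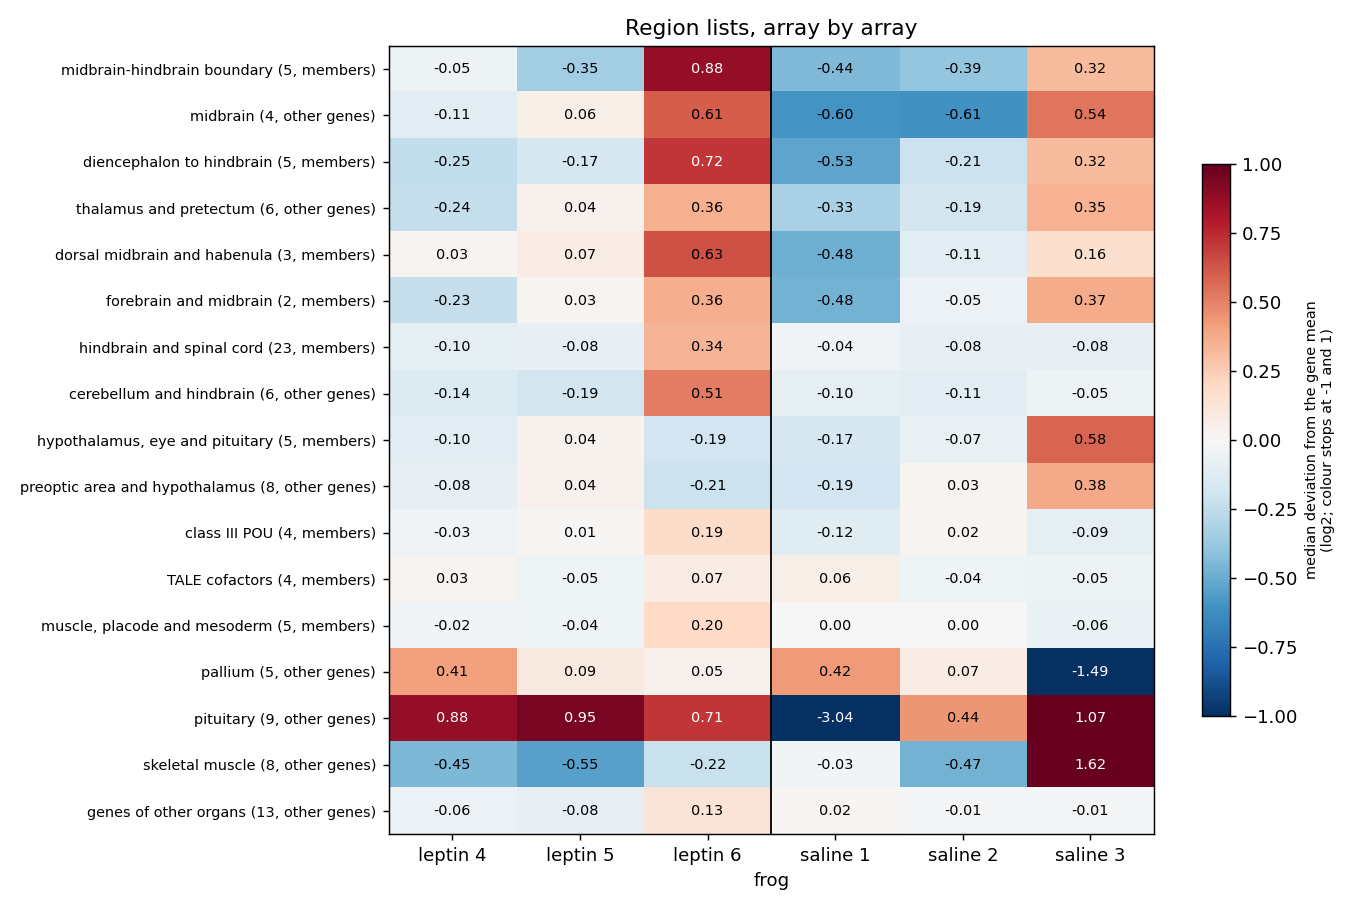
Median deviation of each region list from its genes' own means over the 6 arrays (log2, number in each cell, colour limited to -1 and 1), with leptin frogs on the left and saline frogs on the right. Each row gives the number of measured genes and whether they are members or other genes. Boundary and midbrain lists are high in leptin frog 6 and saline frog 3, the hypothalamic lists in saline frog 3, and the pituitary list is low (-3.04) in saline frog 1. The boundary row holds *en1*, *en2*, *pax2*, *pax5* and *pax8*, without the *gbx2* genes.

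*otx2*, which specifies forebrain and midbrain and is excluded from the hindbrain, lay above the array median on every array. *otx2.L* read 8.37, 8.90 and 9.48 in leptin frogs 4, 5 and 6, against 8.07, 9.02 and 9.70 in saline frogs 1, 2 and 3. The highest and the lowest value were both in saline frogs, and the same 2 frogs were the extremes for *otx2.S* (6.89 in saline frog 3 and 5.66 in saline frog 1). *otx1.L*, a factor of forebrain and midbrain as well, varied far less, at 9.70, 9.69 and 9.78 in leptin frogs, against 9.50, 9.40 and 9.57 in saline frogs.

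*pax7.L* had the widest range of all members. *pax7* marks the dorsal diencephalon and midbrain, and in the mouse it also specifies the melanotrope cells of the pituitary intermediate lobe. Its signal was 7.99, 8.31 and 8.91 in leptin frogs 4, 5 and 6, against 5.94, 7.66 and 8.98 in saline frogs 1, 2 and 3. Saline frog 1 stood apart at the low end. The same frog had the lowest value for 8 of the 9 pituitary genes, among them *pomc* at 9.11, against 13.86 to 14.37 elsewhere, and prolactin (*prl.1*) at 3.54, against 12.70 to 13.39 elsewhere. Without that frog *pax7.L* still varied, from 7.66 to 8.98. The part of the pituitary in this difference was not tested.

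Ventral forebrain members set saline frog 3 apart from leptin frog 6. The *six6.L* probe set, for a gene needed in hypothalamus, pituitary and retina, read 10.41, 10.59 and 10.36 in leptin frogs 4, 5 and 6, against 10.38, 10.44 and 11.14 in saline frogs 1, 2 and 3. Saline frog 3 alone was high, and *six6.S* repeated this (8.23, against 7.14 to 7.51 elsewhere). *six3.L*, which holds back posterior fates in the forebrain, was at 9.92 in saline frog 3 and at 9.34 to 9.56 elsewhere. The 2 *six3.S* probe sets disagreed, with 1 highest in saline frog 3 (6.76, against 6.58 in leptin frog 6) and 1 highest in leptin frog 6 (6.79, against 6.44 in saline frog 3). *nkx2-4.S*, a close relative of *nkx2-1*, read 7.76, 7.95 and 7.57 in leptin frogs, against 7.46, 7.87 and 8.55 in saline frogs, and *nkx2-4.L* was also highest in saline frog 3. *nkx2-2.S*, a ventral neural tube factor, read 8.30, 8.50 and 8.38 in leptin frogs, against 8.56, 8.51 and 9.24 in saline frogs. The exception on this list was *pax6.L*, at 11.16 in saline frog 3 and 11.11 to 11.40 elsewhere. Leptin frog 6, highest for the 5 boundary list genes above, was lowest for *six6.L* and *pax6.L*, by small margins. *six6.L* read 10.36, against 10.38 in saline frog 1, and *pax6.L* 11.11, against 11.16 in saline frog 3. With the arrays scaled to 1 common distribution, saline frog 1 was instead lowest for *six6.L* (10.375, against 10.398 in leptin frog 6). Among all brighter genes, leptin frog 6 was lowest for 25.4% in the deposited values. The *six3-b* probe set, which is not on the list, read 6.25 in both leptin frog 6 and saline frog 3 and 5.73 to 5.90 elsewhere. Saline frog 3 was also the frog with high muscle and low pallial transcripts, whose part in these values was not tested.

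The *gbx2* genes were highest in saline frog 3, as most of the ventral forebrain genes were. *gbx2* is known from the anterior hindbrain, where it opposes *otx2*, and from the thalamus. *gbx2.1.S* read 8.20, 8.62 and 8.30 in leptin frogs 4, 5 and 6, against 8.39, 8.38 and 9.18 in saline frogs 1, 2 and 3. *gbx2.2.L* read 6.73, 7.35 and 6.52 in leptin frogs, against 7.13, 6.63 and 7.97 in saline frogs. Saline frog 3 was highest for both, and leptin frog 6, with the highest *en2*, had the lowest *gbx2.2.L*.

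Hox genes, whose order along the chromosome matches their order along hindbrain, spinal cord and trunk, lay low in the signal range of every array. All 23 lay below the array median on every array, as did all 38 Hox probe sets, and 15 of the 23 lay below the lower quartile on every array. Of all 9271 genes, 2762 lay below the median on every array and 1056 below the lower quartile. Their values ran from 3.19 to 6.91. *hoxa11.S*, a gene of caudal trunk and limb with the highest mean of the family, read 5.80, 5.83 and 6.91 in leptin frogs 4, 5 and 6, against 5.91, 5.66 and 5.73 in saline frogs 1, 2 and 3. A second *hoxa11.S* probe set also peaked in leptin frog 6, at 4.34 against 4.06 to 4.18 elsewhere.

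Leptin frog 6 was highest for 20 of the 23 Hox genes, against 1824 of all 9271 genes (19.7%) and 1353 of the 4635 genes in the dimmer part of the signal range (29.2%). Unlike *en1*, *en2*, *pax2* and *pax5*, Hox genes were not raised in saline frog 3. Over the 23, the median deviation from each gene's own mean was -0.10, -0.08 and 0.34 in leptin frogs 4, 5 and 6. It was -0.04, -0.08 and -0.08 in saline frogs 1, 2 and 3, so saline frog 3 was like most other arrays. Saline frog 3 was lowest for 9 of 23, against 18.4% of all genes and 15.8% of the 4635 dimmer genes. Leptin frog 6 was lowest for 0 of 23, against 25.7% of the dimmer genes, which leaves more lowest places to the other arrays. Saline frog 3 was highest for 0 of 23, but with leptin frog 6 highest for 20, that count cannot show the contrast. *hoxc12.L*, a gene of the tail end of the trunk, read 4.08, 4.06 and 5.77 in leptin frogs 4, 5 and 6, against 4.37, 4.10 and 4.06 in saline frogs 1, 2 and 3. When the 6 arrays were scaled to 1 common distribution, leptin frog 6 was highest for 15 of 23. In that scaling it was highest for 22.8% of all genes and 27.5% of the 4635 dimmer genes. The part of that array's raised low end in the Hox values was not tested.

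**Figure D3:**
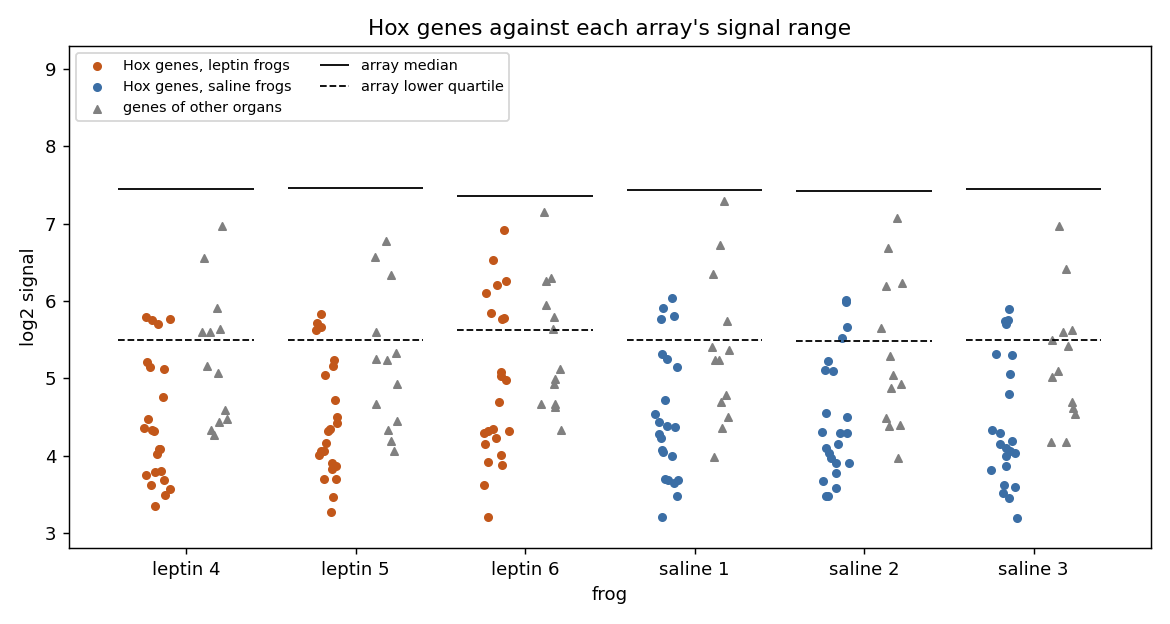
Log2 signal (vertical axis) of the 23 Hox genes (circles) and of 13 genes of other organs (grey triangles) on each array, leptin frogs on the left in orange and saline frogs on the right in blue; horizontal jitter only separates points. Every Hox gene lies below the array median (solid line), and the lower quartile (dashed line) is highest in leptin frog 6, at 5.62.

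Further members of mesoderm and other organs also lay low on the arrays. *pax1*, *nkx2-3*, *nkx2-5*, *nkx2-6* and *nkx3-3*, known from somites, pharynx, heart and gut, all lay below the array median on every array, between 4.51 and 5.91. So did *nkx1-2.L* (4.09 to 4.93), *pou2f3.L* (5.22 to 5.41) and *pou5f3.3.L* (5.19 to 5.77). *nkx6-2.L*, a factor of ventral progenitors and oligodendrocytes, read 6.26, 5.81 and 6.82 in leptin frogs 4, 5 and 6, against 5.56, 5.51 and 6.41 in saline frogs 1, 2 and 3. A second *nkx6-2.L* probe set read 6.42 in leptin frog 6 and 5.89 in saline frog 3, against 5.66 to 5.87 elsewhere. Saline frog 3 thus hardly stood out on it. Myelin basic protein (*mbp*) is an oligodendrocyte product outside the rule. It was higher in leptin frog 6 and saline frog 3 (13.61 and 13.56) than in the other 4 (12.36 to 13.17).

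Class III POU factors, known from neural progenitors and neurons, were measured by 4 genes. *pou3f4.L* read 10.99, 11.10 and 11.40 in leptin frogs 4, 5 and 6, against 10.98, 11.09 and 11.21 in saline frogs 1, 2 and 3. The *pou3f4.S* probe set was instead lowest in leptin frog 6, at 8.72 against 8.77 to 8.92 elsewhere. *pou3f1.L* ran from 10.03 to 10.48 over all 6. *pou3f2.S* read 7.08, 7.31 and 7.54 in leptin frogs, against 7.19, 7.46 and 7.71 in saline frogs. The broadly expressed factor *pou2f1.S* lay between 8.81 and 9.34. The TALE cofactors, which bind DNA together with Hox and other homeodomain proteins, varied by 0.22 (*pbx2.L*) to 0.73 (*meis3.L*). *meis3.L* read 8.01, 7.72 and 7.77 in leptin frogs, against 8.04, 7.68 and 7.31 in saline frogs, with saline frog 3 lowest. *pax6.L*, a factor of eye, pallium and diencephalon, varied by less than most members, as given above. The partner protein genes *paxip1.L* and *paxbp1.L* ran from 6.86 to 7.52 and from 6.08 to 6.37 over the arrays.

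The *pax3* probe sets disagreed with one another. *pax3*, a factor of the dorsal neural tube, had the highest mean signal of the family through a probe set at 12.64, 12.62 and 12.49 in leptin frogs 4, 5 and 6, against 12.50, 12.62 and 12.43 in saline frogs 1, 2 and 3. Of its 6 further probe sets, 1 lay at 12.25 to 12.49, 1 at 7.21 to 7.62 and 4 between 3.50 and 5.31. Within the lowest 4, the *pax3.L* probe set at 4.56, 4.96 and 5.26 in leptin frogs, against 4.17, 4.17 and 5.25 in saline frogs, was high in leptin frog 6 and saline frog 3, as *en2* was. The others of these 4 did not repeat this. A further *pax3.L* probe set varied by only 0.35. On both *pax3.S* probe sets leptin frog 5 (5.15 and 4.66) read above saline frog 3 (4.76 and 4.36), and 1 was highest in saline frog 1 (4.84). The level of *pax3* in these blocks is therefore uncertain.

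Leptin frogs were then compared with saline frogs with limma across all 32539 probe sets. None of the 71 members passed a Benjamini-Hochberg adjusted p of 0.05, where 0.0% of probe sets passed over the whole array, and the smallest adjusted p among members was 0.906 over all probe sets and 0.874 over all genes. At an unadjusted limma p under 0.05 there were 3 members (4.23%), all higher in leptin frogs, against 4.88% of all genes (1.51% higher and 3.37% lower) and 4.71% of all probe sets. Without variance moderation 4 members lay under that threshold and 0 passed after adjustment. The groups did not overlap for 8 members, 6 above and 2 below, where 4.51% of all genes had leptin above and 9.85% had leptin below. In either direction that was 11.3% of members, against 14.4% of all genes.

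The 3 members under the unadjusted threshold were *pou3f3.S*, *otx1.L* and *pou5f3.1.L*. *pou3f3.S*, a class III POU factor of the forebrain, read 8.25, 8.18 and 8.30 in leptin frogs 4, 5 and 6, against 7.99, 8.04 and 7.77 in saline frogs 1, 2 and 3. The groups did not overlap, and the difference was log2 0.31 (SE 0.10, 95% interval 0.08 to 0.55; limma fit across all probe sets, unadjusted p = 0.0168, adjusted p = 0.906). A second *pou3f3.S* probe set overlapped between the groups. *otx1.L*, given above, differed by log2 0.23 (SE 0.08, 95% interval 0.03 to 0.43; limma fit, unadjusted p = 0.0289, adjusted p = 0.906) and also did not overlap. The *pou5f3.1.L* probe set, for a frog relative of the mammalian pluripotency factor Oct4, read 5.80, 6.49 and 6.26 in leptin frogs, against 5.89, 5.60 and 5.55 in saline frogs (log2 0.51, SE 0.19; limma fit, unadjusted p = 0.0351, adjusted p = 0.906). Its groups overlapped, the probe set lay below the array median on every array, and the mean over its 2 probe sets differed by 0.23.

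Of the 5 members with the smallest p in each direction, the others follow. *hoxb2.S* read 4.02, 3.90 and 3.91 in leptin frogs 4, 5 and 6, against 3.70, 3.77 and 3.81 in saline frogs 1, 2 and 3 (log2 0.18, SE 0.08), below the lower quartile of every array. *pou5f3.2.L* differed by log2 0.18 (SE 0.08) without overlap (5.83 to 6.03 in leptin frogs, against 5.72 to 5.74 in saline frogs). On the lower side, *pou2af1.L*, a lymphocyte coactivator, had log2 -0.44 (SE 0.21) with overlapping groups, and -0.26 without saline frog 2 or -0.28 without leptin frog 4. *nkx2-2.S* had log2 -0.38 (SE 0.20) with every leptin frog below every saline frog, and -0.14 without saline frog 3. *pbx2.L* had log2 -0.11 (SE 0.08), also without overlap, and -0.08 without leptin frog 6. On the further *pbx2.L* probe sets the groups overlapped, at log2 0.06, -0.10 and -0.19. The groups overlapped for *gbx2.1.S*, at log2 -0.28 (SE 0.24), which leaving out saline frog 3 brought to -0.013. They also overlapped for *hoxd10.L*, at log2 -0.15 (SE 0.13), which leaving out leptin frog 4 brought to -0.022 and leptin frog 6 to -0.26.

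For the genes that separated the blocks, the interval of the leptin difference was wide and held 0. *en2.S* averaged 6.95 ± 1.12 in leptin frogs and 6.20 ± 0.79 in saline frogs (SD, n = 3 each), a log2 difference of 0.75 (SE 0.62) with a 95% interval of -0.75 to 2.25. That difference was 0.15 without leptin frog 6, 1.20 without saline frog 3 and 1.27 without leptin frog 5. *pax7.L* averaged 8.41 ± 0.47 in leptin frogs and 7.53 ± 1.52 in saline frogs (SD, n = 3 each), a log2 difference of 0.88 (SE 0.72, 95% interval -0.86 to 2.62), which leaving out saline frog 1 reduced to 0.09 and leaving out saline frog 3 raised to 1.61. *irx1.L* differed by 0.52 (SE 0.51, 95% interval -0.70 to 1.73). It differed by 0.18 without saline frog 1, by 0.20 without leptin frog 6 and by 1.06 without saline frog 3. *pou4f4.S* differed by 0.35, by -0.15 without leptin frog 6, by -0.07 without saline frog 1 and by 0.91 without saline frog 3.

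In number, 54 of 71 members were higher in leptin frogs (76.1%), against 44.9% of all genes, with a median log2 difference of 0.11 for members and -0.02 for all genes. Leptin frog 6 decided this count: without it 34 of 71 were higher, against 4005 of all 9271 genes, and the members' median was -0.01. Among Hox genes 19 of 23 were higher, and 13 of 23 without leptin frog 6. Without saline frog 1, 55 of 71 members were higher, and without saline frog 3, 51 of 71. With array weights 44 of 71 were higher, at a median of 0.03, and without both leptin frog 6 and saline frog 3, 40 of 71 were higher, at 0.02. Over all 9271 genes, the number higher in leptin frogs ran from 4005 to 4207 in these settings. With 3 frogs against 3 the full 95% interval had a median width of 0.79 on the log2 scale for members and 0.52 for all genes.

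**Figure D4:**
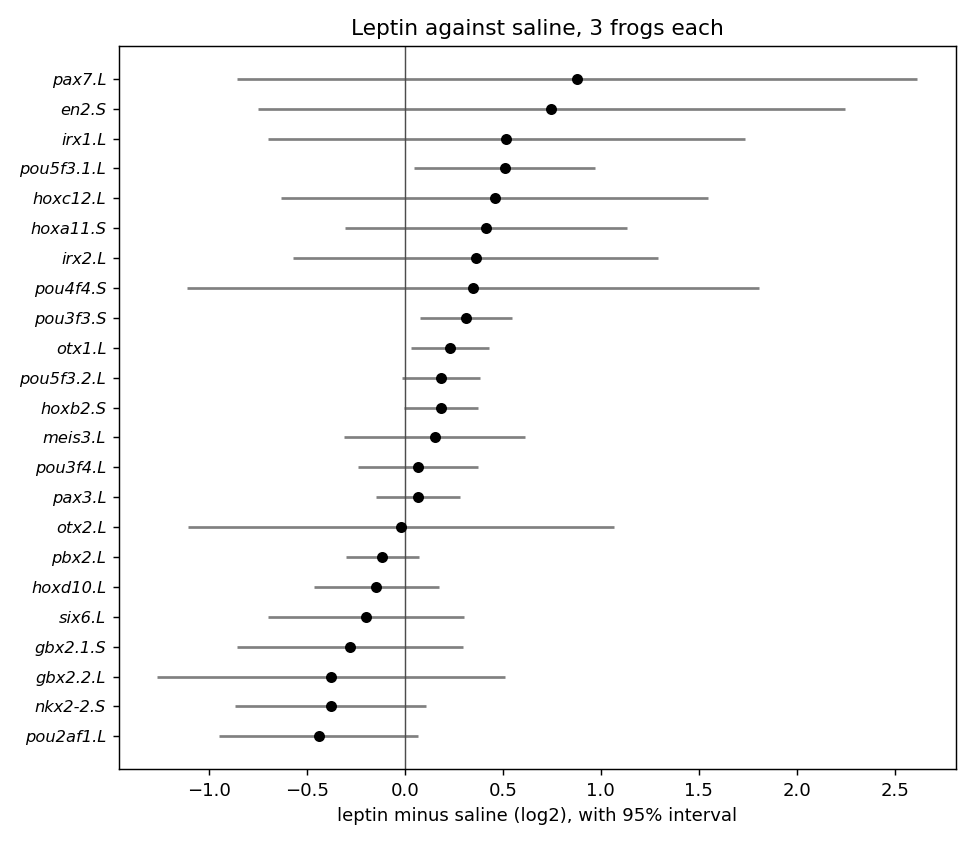
Leptin minus saline difference (log2, horizontal axis) of 23 members, with points for the limma estimate and lines for its 95% interval, 3 frogs in each group. Intervals of *pou3f3.S*, *otx1.L* and *pou5f3.1.L* lie above 0 before adjustment, and those of *pax7.L*, *en2.S* and *pou4f4.S* are widest.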

How the data were processed

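Each of the 6 arrays (3 leptin, 3 saline) had 1 column of log2 signals, 1 value per probe set, deposited by the authors. RMA, affy and limma appear in the submitters' processing notes, with neither a version nor a role. The file held 32635 probe sets, of which 96 controls were left out. Symbols came from the array annotation: 15495 probe sets had 1 symbol, 279 several and 16765 none, and 4 several-symbol probe sets that name a member were not used. Of the 127 member probe sets, 120 matched the RefSeq table of Xenopus_laevis_v10.1 by Entrez identifier, with 0 changed symbols. That table was used for names alone, and no coordinates are printed.

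No further normalization was applied. The groups were compared across all probe sets with limma 3.58.1 (R 4.3.3, lmFit and default eBayes, two-sided, no covariate), with Benjamini-Hochberg adjustment over all 32539 probe sets and, separately, over 9271 genes. The steps were tested on simulated data. Region lists and the rule for genes given in full (*en2*, the highest mean of each family, the 8 widest ranges and the 5 smallest p in each direction) were written down, but members and lists were chosen with earlier results of these data known. Alternatives were array centring, quantile scaling, the brighter 50% of probe sets, no moderation, robust trended eBayes, array weights, the mean of a gene's probe sets and leaving out each frog. Arrays have no read depth, and their number limits the precision.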

Additional observations from a re-analysis of the deposited data

How the results depend on the processing

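No member was called under any setting: 0 passed adjustment in any of the 14 alternatives. The smallest adjusted p (limma) of a gene given in full was 0.697, with array weights. Adjustment ran over the probe sets of each setting, which held 20 members for the brighter 50%. With the mean of a gene's probe sets it ran over 9271 genes. Over all probe sets the count called was 0, and between 0 and 4 when 1 frog was left out (4 without saline frog 2). The number of members at an unadjusted p under 0.05, 3, lay between 2 and 6 when 1 frog was left out (6, or 8.45%, without saline frog 3, against 4.02% of all genes). It was also 6 without saline frog 3 and leptin frog 6, a setting chosen after seeing the data, where 5.41% of all genes were under 0.05. Members whose groups did not overlap, 8, numbered 5 in the brighter 50% of probe sets, where 20 members remained (all genes there, 17.1%), and 33 without those 2 frogs (46.5%, against 39.4%), since fewer frogs overlap more rarely. They numbered 11 to 19 when 1 frog was left out (15.5% to 26.8%, against 21.7% to 29.0% of all genes). The members' median difference, 0.11, ranged from -0.01 to 0.18 when 1 frog was left out. Leptin frog 6 was highest for 49 of 71 members, against 19.7% of all genes. After quantile scaling it was highest for 40, against 22.8% of all genes. Most of these members were dim. Leptin frog 6 was highest for 47 of the 60 members in the dimmer part of the signal range, against 29.2% of the dimmer genes. After quantile scaling that was 38 of 60, against 27.5%. Of the 11 brighter members it was highest for 2 in either scaling, against 10.2% and 18.0% of the brighter genes. These dimmer and brighter parts were split at the median of the 9271 genes. The brighter 50% above was split at the median of all probe sets, so it held 20 members.

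No difference of a gene given in full passed in any setting, and some turned sign. Without saline frog 3 and leptin frog 6 the difference was 0.022 for *gbx2.1*, 0.16 for *gbx2.2*, -0.17 for *hoxc12*, -0.00091 for *meis3*, 0.086 for *otx2* and 0.090 for *six6*. With array weights it was -0.0061 for *hoxc12* and 0.0059 for *otx2*. Leaving out 1 frog gave -0.11 to 0.74 for *hoxc12*, -0.031 to 0.34 for *meis3*, -0.45 to 0.37 for *otx2*, -0.048 to 0.15 for *pou3f4*, -0.15 to 0.91 for *pou4f4* and -0.33 to 0.043 for *six6*. The cause was not tested. No paired analysis was possible because the groups share no frog number. Over the 23 genes given in full, 295 differences kept their sign and side of the threshold and 17 turned sign.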
